A study of Mus musculus with 3 samples.

Results

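The 5hmC regions described here lie in genes annotated as long non-coding RNA (lncRNA) and in no protein-coding gene. Peaks of 3 hydroxymethylated DNA immunoprecipitation (hMeDIP) libraries were merged where they overlapped by at least 1 bp on chromosomes 1 to 19. A merged region was kept where its midpoint fell inside a lncRNA gene of GENCODE M39, outside every protein-coding gene and more than 1 kb from any protein-coding transcription start. This gave 1254 of 13285 merged regions (9.44%), which are called lncRNA-only regions below. In comparison, 8173 merged regions lay in protein-coding introns and 1316 outside all annotated genes.

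hMeDIP captures sonicated DNA with an antibody against 5-hydroxymethylcytosine (5hmC), and direct nanopore sequencing of the captured molecules reads each CpG as 5hmC, 5mC or unmodified C. All 3 libraries came from cerebellum DNA of a female C57Bl6Cr mouse aged 8 weeks, with 1 µg of DNA per reaction and a mean fragment length of 362 bp. The library names point to a single animal, so that replicates differ as reactions and not as mice. Replicate 1 was precipitated with a whole serum antibody and replicates 2 and 3 with an IgG-purified antibody, so that the antibody and replicate 1 cannot be told apart. Peaks had been called against a library of unprecipitated DNA. The replicates had 490, 8506 and 5146 peaks on chromosomes 1 to 19, in that order, of which 34, 814 and 481 were in lncRNA-only regions.

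5hmC is made from 5mC by the TET enzymes and is abundant in neurons, where it is best known from the bodies of transcribed genes. lncRNA genes are transcribed by RNA polymerase II like protein-coding genes, but most are short, weakly expressed and named only by a number. Some act in the nucleus, such as Neat1, which builds paraspeckles, while others are precursors of microRNAs or are imprinted.

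The DNA under some of the regions that the results turn on is shown first, on the forward strand of GRCm39. Among lncRNA-only regions with a peak in at least 2 replicates, several with the highest mean fold enrichment over input had no CpG around the summit. The 120 bases around the summit of the highest of them, in 4930517M08Rik (chr17:4676546-4676665), hold no CpG and a perfect tandem repeat of 44 bases.
4930517M08Rik: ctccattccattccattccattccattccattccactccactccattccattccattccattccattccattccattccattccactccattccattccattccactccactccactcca

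A further 5 windows of 300 bases around the summit, on the same strand and build, show the range of CpG content and modification, with each CpG in capitals. Gm71408 (chr5:113819511-113819810, 10 CpG) and Mir124-2hg (chr3:17849475-17849774, 7 CpG) gave the highest 5hmC shares among regions with at least 20 calls. Gm34293 (chr2:157517029-157517328, 12 CpG) and Zfp783 (chr6:47920175-47920474, 29 CpG) gave some of the lowest. Neat1 (chr19:5894370-5894669, 10 CpG) held the best-known lncRNA among the regions with repeated peaks.
Gm71408: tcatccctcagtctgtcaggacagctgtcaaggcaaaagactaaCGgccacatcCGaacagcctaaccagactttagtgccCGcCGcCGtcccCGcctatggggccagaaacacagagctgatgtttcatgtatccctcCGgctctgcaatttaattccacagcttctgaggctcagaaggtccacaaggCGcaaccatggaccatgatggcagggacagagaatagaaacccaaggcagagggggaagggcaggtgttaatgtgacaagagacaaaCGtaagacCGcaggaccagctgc
Mir124-2hg: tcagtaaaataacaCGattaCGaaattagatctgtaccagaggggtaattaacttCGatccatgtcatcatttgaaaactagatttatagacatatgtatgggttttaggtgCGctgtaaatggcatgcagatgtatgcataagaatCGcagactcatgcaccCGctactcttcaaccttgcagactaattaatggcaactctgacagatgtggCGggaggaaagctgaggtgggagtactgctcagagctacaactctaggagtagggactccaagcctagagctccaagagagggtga
Gm34293: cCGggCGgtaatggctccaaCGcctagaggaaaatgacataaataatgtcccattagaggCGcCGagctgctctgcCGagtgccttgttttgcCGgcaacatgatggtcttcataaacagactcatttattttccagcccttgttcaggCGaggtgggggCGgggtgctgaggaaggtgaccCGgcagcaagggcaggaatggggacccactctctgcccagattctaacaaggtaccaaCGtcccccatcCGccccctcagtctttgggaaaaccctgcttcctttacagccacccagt
Zfp783: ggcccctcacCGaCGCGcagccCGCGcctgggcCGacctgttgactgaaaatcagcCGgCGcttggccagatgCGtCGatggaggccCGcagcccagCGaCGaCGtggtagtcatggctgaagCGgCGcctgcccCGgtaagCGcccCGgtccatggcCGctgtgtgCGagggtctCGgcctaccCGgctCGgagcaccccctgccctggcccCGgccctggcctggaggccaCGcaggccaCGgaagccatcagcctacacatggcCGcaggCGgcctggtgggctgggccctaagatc
Neat1: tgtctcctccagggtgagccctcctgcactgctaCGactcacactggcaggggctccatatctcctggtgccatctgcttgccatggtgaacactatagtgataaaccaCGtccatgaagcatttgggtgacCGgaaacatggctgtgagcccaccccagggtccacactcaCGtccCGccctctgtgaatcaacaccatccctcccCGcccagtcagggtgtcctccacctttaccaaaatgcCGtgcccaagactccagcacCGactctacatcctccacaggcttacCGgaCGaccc

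To ask whether lncRNA genes receive 5hmC peaks as often as their length allows, peaks were compared with 500 bp windows of the same chromosomes. lncRNA-only regions took 6.94%, 9.57% and 9.35% of the peaks of replicates 1 to 3, against 16.6% of windows. The difference was negative in all replicates, at −7.98 ± 1.46 percentage points (mean ± SD, n = 3, two-sided exact permutation test over sign flips, p = 0.25, the smallest p that 3 replicates allow). Peaks outside all genes were further below their window share (−30.0 ± 0.224 points), whereas those in protein-coding introns were above it (23.7 ± 1.88 points). In territory, lncRNA-only regions numbered 3.15 per Mb, compared with 9.43 per Mb in protein-coding introns and 1.38 per Mb outside genes. Against windows with at least 10 CpG, of which 14.6% were lncRNA-only, the shortfall was −5.95 points, although the peaks were not held to that minimum.

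**Figure D1:**
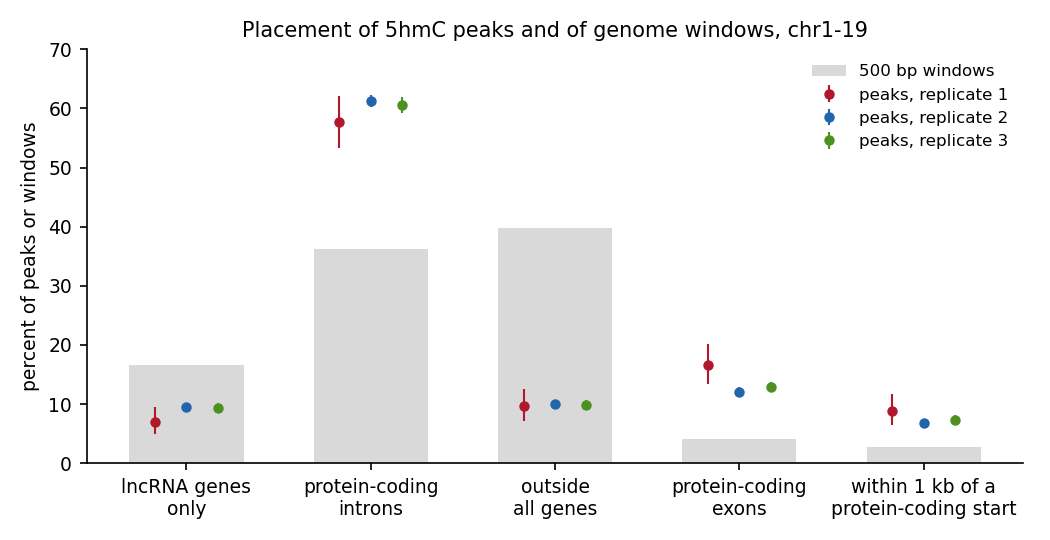
Percent of the peaks of each replicate (points, with exact binomial 95% intervals) and percent of 500 bp windows (grey bars) in 5 classes of position on chromosomes 1 to 19. Peaks in lncRNA genes only, between 6.94% and 9.57%, lie below the bar of 16.6%, and peaks in protein-coding introns lie above theirs.

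lncRNA-only regions were concentrated at lncRNA starts. Within 1 kb of a lncRNA transcription start lay 38.2%, 33.8% and 36.04% of the regions of replicates 1 to 3, against 11.3% of lncRNA-only windows. The excess was 24.7 ± 2.23 percentage points (mean ± SD, n = 3, two-sided exact permutation test, p = 0.25). CpG-rich windows are themselves closer to starts, as 29.4% of lncRNA-only windows with at least 10 CpG lay within 1 kb. Against these the excess fell to 8.84, 4.39 and 6.65 points, a comparison added after seeing the data, in which the regions were not held to that minimum. Density fell with distance, from 10.8 regions per Mb within 500 bp of a start to 1.37 per Mb between 10 and 50 kb.

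Over all 1254 regions, 429 (34.2%) were within 1 kb of a lncRNA start, 113 (9.01%) were in exons farther away and 712 (56.8%) were in introns. Counting every region in a lncRNA exon, the share exceeded that of windows by 17.7 ± 3.23 points (n = 3, two-sided exact permutation test, p = 0.25). Against windows with at least 10 CpG this was 2.69, −1.05 and 5.39 points, so that no excess over these windows was held by all replicates. The regions were not held to that minimum. Their median was 1.66 CpG per 100 bp, so that most were less CpG-dense than these windows. Such a comparison cannot show that an excess is absent at equal CpG density. The nearest protein-coding start was 58658 bp away at the median, compared with 94098 bp for lncRNA-only windows, and 186 regions (14.8%) were within 10 kb of one, against 9.22% of windows and 13.7% of windows with at least 10 CpG. The excess over the latter was 9.80, 0.400 and 1.69 points in the 3 replicates, so that it was small in replicates 2 and 3.

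**Figure D2:**
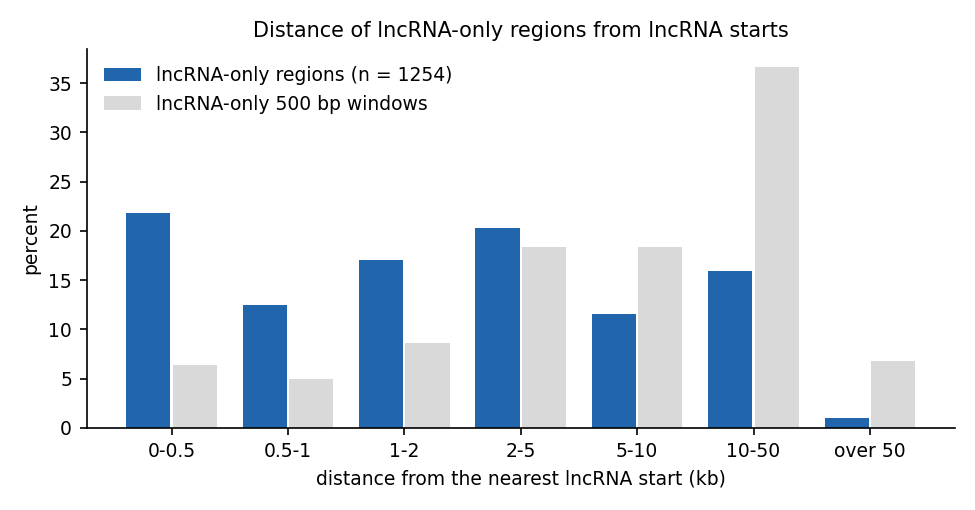
Percent of the 1254 lncRNA-only regions (blue) and of lncRNA-only 500 bp windows (grey) by distance in kb from the nearest lncRNA start. Regions exceed windows in each bin up to 5 kb, and windows exceed regions in each bin beyond 5 kb.

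In base composition lncRNA-only regions were close to regions in protein-coding introns and richer in CpG than the lncRNA genes around them. The median CpG density was 2.03, 1.65 and 1.74 CpG per 100 bp in the 3 replicates, against 0.600 in lncRNA-only windows. In protein-coding introns it was 2.03, 1.64 and 1.66, and the difference of 0.0327 ± 0.0471 CpG per 100 bp was smaller than the spread between replicates (n = 3, two-sided exact permutation test, p = 0.25). The median GC content was 50.3%, 48.4% and 48.6%, compared with 42.2% in lncRNA-only windows. Over all regions of a class, the median CpG density was 1.66 per 100 bp in lncRNA-only regions, compared with 2.63 in protein-coding exons and 2.27 within 1 kb of a protein-coding start. No CpG was held by 21 lncRNA-only regions (1.67%), compared with 1.17% of all merged regions, 0.979% of those in protein-coding introns and 3.72% of those outside all genes. Region length had a median of 304 bp, and 27 regions reached 1 kb.

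Most peaks were low and occurred once. Peaks in lncRNA-only regions had a median fold enrichment of 5.51, 3.83 and 3.87 in the 3 replicates. In protein-coding introns it was 4.72, 3.81 and 3.86, a difference of 0.273 ± 0.450 (n = 3, two-sided exact permutation test, p = 0.25) that came from replicate 1 and was 0.0148 and 0.0113 in the others. Outside all genes the median fold was 5.50, 3.81 and 3.87, so that replicate 1 was high there as well. Fold values fell on steps, with 30.5% of the lncRNA-only peaks of replicate 2 at 3.83 and 183 of the 481 of replicate 3 at 3.87, so that many peaks shared 1 low height. A peak in 2 or more replicates was found at 67 regions (5.34%), 7 of them in all 3 replicates. This is close to the 5.97% of all merged regions, and to 5.16% in protein-coding introns and 5.55% outside genes, and below 9.44% in protein-coding exons and 8.64% within 1 kb of a protein-coding start. These differences were not tested. Of these 67 regions, 53 were shared by replicates 2 and 3 alone, which had the same antibody and the most peaks.

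The highest folds belonged to a few regions with unusual sequence. The region of 4930517M08Rik, a lncRNA gene with no assigned function, had folds of 7.79, 12.8 and 21.3 in replicates 1 to 3. It spans chr17:4676278-4676915 in an intron and holds 3 CpG in 638 bp, with 14 of 30 calls read as 5hmC. The region in 2310020H05Rik and Gm61409 had folds of 8.07, 12.9 and 19.5 and 1 CpG, at which no call was made. In both, the fold was lowest in replicate 1 and highest in replicate 3.

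The region of 8030443G20Rik had folds of 9.54, 7.94 and 9.17 over 1148 bp without a single CpG. In Gm62331 the folds were 5.40 and 8.58 in replicates 2 and 3, again with no CpG. Gm13580 (chr2:60232854-60233178) reached 10.7 and 10.9 in replicates 2 and 3, with 2 CpG and no calls. In these 3 regions no 5hmC could be read at a CpG. A perfect tandem repeat of a unit of 1 to 6 bases, at least 24 bases long, lay within 150 bp of the summit at 5 of the 13 regions with a fold of 7 or more (38.5%). Over all lncRNA-only regions it was 99 of 1254 (7.89%), close to the 7.92% of lncRNA-only windows, with AC as the unit in 49 of the 99.

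**Figure D3:**
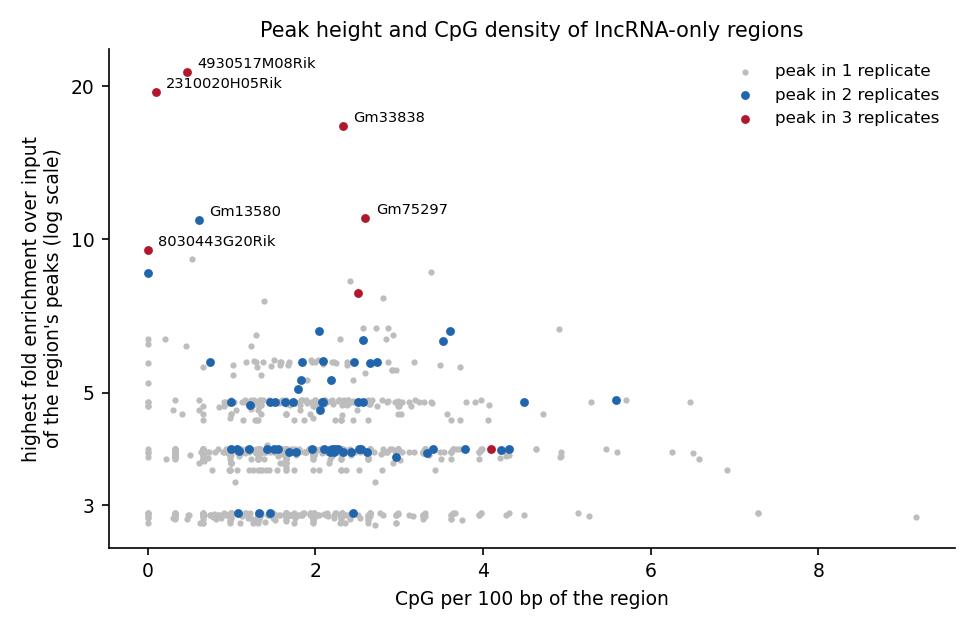
Highest fold enrichment over input of each lncRNA-only region (log scale) against its CpG density, for the 1254 regions coloured by the number of replicates with a peak. The 2 highest points, 4930517M08Rik and 2310020H05Rik, lie at under 0.5 CpG per 100 bp, and most regions form rows near folds of 3, 4 and 5.

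Other high peaks held mostly 5mC. In 4 lncRNA-only regions at least 1 CpG had 20 or more calls in a replicate, where the median over all sites was 1 call, and these deep regions were left out of the shares below. The region of Gm75297 (chr2:98496582-98497736) had folds of 9.32, 10.2 and 11.03 and 37742 calls, of which 2.05% were 5hmC and 88.6% were 5mC. Its 5hmC share was 1.70%, 2.72% and 2.60% in replicates 1 to 3, so that each replicate was low. Gm33838 (chr9:35216511-35216939) had folds of 16.7, 10.8 and 7.26, with 25 of 634 calls (3.94%) read as 5hmC. The others, in Gm75300 and at the overlap of Gm75300 with Gm75297, lie beside the first on chromosome 2 and held 1.74% and 1.38% 5hmC. For reads without 5hmC, the paper proposes that some were pulled down nonspecifically, at repetitive or high signal regions. Whether the deep regions, or the regions above with few or no CpG, are of that kind was not tested.

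Outside deep regions, 5hmC made up between 30.7% and 33.2% of the CpG calls in lncRNA-only regions. Within its own peaks, replicate 1 had 33.2% 5hmC among 373 calls, with an exact (Clopper-Pearson) binomial 95% interval from 28.5% to 38.3%. Replicate 2 had 30.7% among 6542 calls (29.6% to 31.9%), and replicate 3 had 31.03% among 3680 calls (29.5% to 32.6%). The share of 5mC was 49.3%, 39.6% and 41.2%, and that of unmodified C was 17.4%, 29.7% and 27.8%. With the 4 deep regions kept, 5hmC was 2.19%, 14.6% and 14.1% of calls in the 3 replicates and 5mC was 89.1%, 66.5% and 68.1%. Calls along 1 molecule are not independent, so that these intervals cover counting error only.

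Compared with protein-coding introns, at 31.9%, 35.6% and 34.8%, 5hmC in lncRNA-only regions differed by 1.38, −4.92 and −3.80 points, so that replicate 1 went against the others. The direction in replicate 1 was not stable, since the median over regions with at least 10 calls differed by −3.00, −6.72 and −3.70 points. The mean difference of −2.45 ± 3.36 points was within the spread of the replicates (n = 3, two-sided exact permutation test, p = 0.5). In replicates 2 and 3 the counting intervals of the 2 classes did not overlap. The 5mC share within peaks was higher in lncRNA-only regions by 12.4, 0.609 and 1.18 points, but at sites outside a replicate's own peaks it differed by −0.562, −2.76 and 5.26 points. Compared with regions outside all genes, at 12.3%, 27.1% and 26.3%, 5hmC was higher by 20.9, 3.61 and 4.70 points (n = 3, two-sided exact permutation test, p = 0.25). Sites with at least 5 calls weighed more outside genes, where they gave 832 of 1983, 787 of 7421 and 393 of 4641 calls in replicates 1 to 3. In lncRNA-only regions they gave 0 of 373, 45 of 6542 and 27 of 3680. In replicate 1 the calls outside genes came from 38 regions, with 56.5% unmodified C. As a median over regions with at least 10 calls, 5hmC was higher than outside genes by 13.6, 0.420 and 4.63 points, so that replicate 2 showed almost no difference. This direction depended on leaving out the deep regions of both classes, since with them it was −2.12, −9.72 and −9.56 points (mean −7.14), and the mean difference from protein-coding introns was then −21.7 points. Without regions that had a peak in all 3 replicates, left out after seeing the data, the difference from regions outside genes became 15.4, −1.39 and 2.81 points. The direction in replicate 2 thus rested on those regions, of which 7 were lncRNA-only and 13 lay outside genes. Leaving such regions out of protein-coding introns and lncRNA-only regions hardly moved their difference in replicate 2, from −4.92 to −4.9991 points. The change against regions outside genes therefore need not come from the lncRNA-only regions. Which class it came from was not tested.

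**Figure D4:**
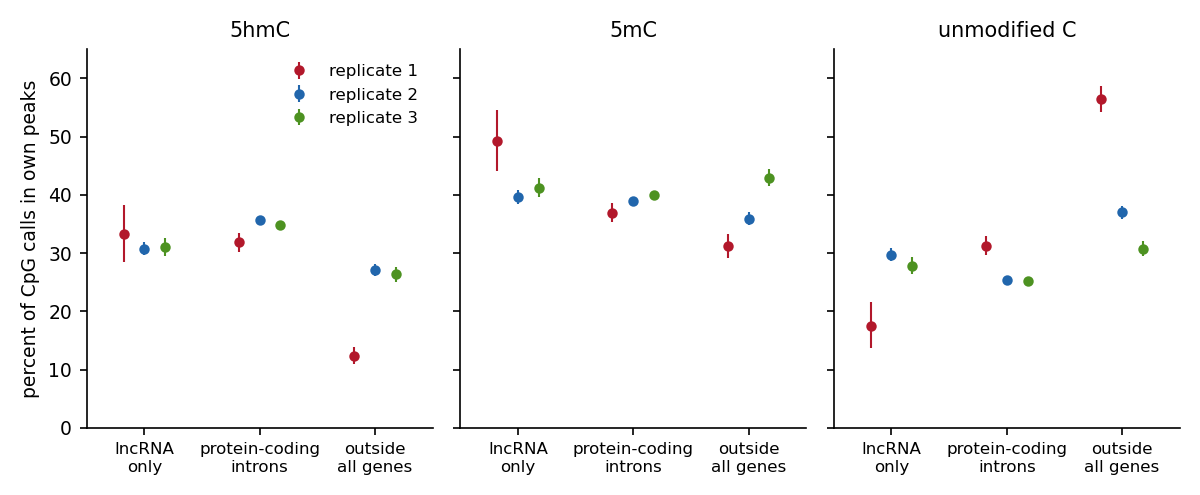
Percent of CpG calls read as 5hmC, 5mC and unmodified C within the peaks of each replicate, without deep regions, with exact binomial 95% intervals. 5hmC in lncRNA-only regions lies at 33.2%, 30.7% and 31.03%, below protein-coding introns in replicates 2 and 3 and above regions outside genes in each replicate.

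CpG calls in lncRNA-only regions that were not peaks of the replicate itself gave 33.1%, 34.9% and 32.8% 5hmC. In protein-coding introns they gave 34.8%, 34.3% and 36.9%, a difference of −1.75 ± 2.36 points (n = 3, two-sided exact permutation test, p = 0.5), and outside genes they gave 23.1%, 27.7% and 23.96%. Here lncRNA-only regions were above regions outside genes by 10.1, 7.18 and 8.80 points, or 8.67 ± 1.44 (n = 3, two-sided exact permutation test, p = 0.25).

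The balance of modifications differed with distance from the lncRNA start. Within 500 bp of a start, unmodified C made up 35.6% of calls in replicate 2 and 33.9% in replicate 3. Between 5 and 10 kb it was 24.8% and 19.5%. 5mC took the opposite course, from 35.3% and 38.5% within 500 bp to 42.0% and 46.3%. 5hmC differed less, at 29.1% and 27.6% within 500 bp and 33.2% and 34.2% between 5 and 10 kb. Replicate 1, with 139 and 20 calls in these bins, had 14.4% and 35.0% unmodified C and did not follow the others, and at 10 to 50 kb replicate 3 returned to 33.3% unmodified C, with 26.7% 5hmC and 39.96% 5mC. Beyond 50 kb, replicate 2 had 45.1% unmodified C and 11.8% 5hmC among 51 calls, so that the course did not continue. CpG-rich regions also held less 5hmC, with 22.8% and 26.1% in replicates 2 and 3 where the density was 4 per 100 bp or more, compared with 35.6% and 34.1% between 1 and 2. Density was highest near starts (median 2.16 per 100 bp within 500 bp), and its part in the trend with distance was not tested.

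Each region with at least 20 calls was then compared with all other regions by a quasi-binomial score test (dispersion 1.94 for 5hmC and 2.21 for 5mC) and Benjamini-Hochberg adjustment over 2670 regions. All calls of a region were summed over the replicates, with or without a peak there. They were set against the number expected from the other regions of the same replicates, in 1 test per region. Of 202 lncRNA-only regions tested, 0 were higher in 5hmC and 1 was lower, against a background of 1.05% of all regions higher and 1.31% lower. At an unadjusted p under 0.05 in this quasi-binomial test, 9 (4.46%) were higher and 8 (3.96%) lower, compared with 8.24% and 5.54% of all regions tested. For 5mC, 6 were higher and 3 lower, against a background of 4.04% and 2.1%. The 5hmC share of single regions had a median of 30.0%, with quartiles of 22.6% and 39.9% and a range from 0 to 62.1%, and the median over all 2670 regions was 31.25%.

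The region called lower in 5hmC was at the start of Zfp783 (chr6:47920069-47920668), a gene with a zinc finger symbol that GENCODE M39 classes as lncRNA. It held 55 CpG, with 5 of 97 calls as 5hmC and 87 as unmodified C (adjusted p = 0.0133 for 5hmC and 0.000732 for 5mC by the quasi-binomial test). Of these calls, 93 came from replicate 2, so that few molecules stand behind it. The dispersion used for this region came from other regions, since its calls were too few outside replicate 2. The lowest shares after 0 of 23 in Gm34293 and before Zfp783 were 1 of 35 in Gm59824 and 1 of 27 in Gm46242. These are not alike, since Gm34293 and Gm59824 were mostly 5mC (20 of 23 and 28 of 35 calls, both called higher in 5mC), while Gm46242, Zfp783 and Gm63097 were mostly unmodified. Gm46620, 1831 bp from the start of Zfp236, had the smallest adjusted p for 5mC among lncRNA-only regions (57 of 66 calls, adjusted p = 1.89e-05 by the quasi-binomial test), at 6 of 7, 22 of 26 and 29 of 33 calls in replicates 1 to 3. The other regions called higher in 5mC were in 1700026D11Rik (25 of 31 calls), 4833412C05Rik (26 of 29) and Gm35853 (48 of 71). Those called lower, beside Zfp783, were in Gm14461 (12 of 86) and D030025P21Rik, where 0 of 39 calls were 5mC and 35 were unmodified.

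The highest 5hmC shares were 18 of 29 calls in Gm71408 (62.1%, exact binomial 95% interval 42.3% to 79.3%) and 25 of 43 in Mir124-2hg (58.1%, 42.1% to 73.0%). In Gm71408 the share was 2 of 6, 10 of 15 and 6 of 8 calls in replicates 1 to 3. None of the 5 highest was called after adjustment, the smallest adjusted p being 0.117 for Mir124-2hg by the quasi-binomial test. In Gm65711, Gm31194 and Lncpint the shares were 12 of 21, 20 of 36 and 11 of 20 calls, and Gm31194 is 32991 bp from the start of Neurod2, a neuronal transcription factor gene.

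The Mir124-2hg region (chr3:17849329-17850739, 28 CpG) contains the hairpin of Mir124a-2 at chr3:17849826-17849934, which gives rise to the neuronal microRNA miR-124. Within the hairpin itself, 8 of 10 calls were 5hmC, 2 were 5mC and 0 were unmodified. A second Mir124-2hg region (chr3:17841418-17842014) near the 5′ end of the gene had folds of 3.83 and 2.90 in replicates 2 and 3, with 15 5hmC and 18 5mC among 35 calls. Of 339 annotated microRNA genes in lncRNA-only territory, 4 overlapped a lncRNA-only region, the others being Mir675, Mir7214 and Gm55532. These overlaps were looked up after the values were seen. Of 447 small nucleolar RNA genes 0 did, and of 146 genes of other small RNAs (misc_RNA) 5 did. These counts were not compared with an expected share.

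By genes, 1120 of 31151 lncRNA genes (3.6%) held a lncRNA-only region, and 895 of them held 1. Genes with a region were longer (median 25732 bp against 5771 bp for all lncRNA genes). The gene with the most was Lncpint, a long lncRNA induced by p53, with 16 regions in 138108 bp (chr6:31059500-31197607, reverse strand), or 11.6 per 100 kb. Of these, 13 had a peak in replicate 2 and 5 in replicate 3, with 2 in both, while replicate 1 had 0. Folds ranged from 2.86 to 5.74. Over the 201 calls of the 16 regions, 34.8% were 5hmC, 31.3% were 5mC and 33.8% were unmodified. 5hmC made up 22.2%, 35.5% and 39.6% in replicates 1 to 3, and replicate 1 gave 27 of the calls.

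Calls in single Lncpint regions were few, and none of the 4 regions with at least 20 calls was called in the quasi-binomial test. At chr6:31117170-31117961, 80.04 kb from the 5′ end, there were folds of 4.79 and 2.90 in replicates 2 and 3, and 11 of 20 calls were 5hmC with 0 5mC. At chr6:31192043-31192800, 5.185 kb from the 5′ end, the folds were 5.74 and 3.64, with 13 5hmC, 12 5mC and 19 unmodified calls. At 24.1 and 38.3 kb, the regions had 5mC alone (3 of 3 and 5 of 5 calls).

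**Figure D5:**
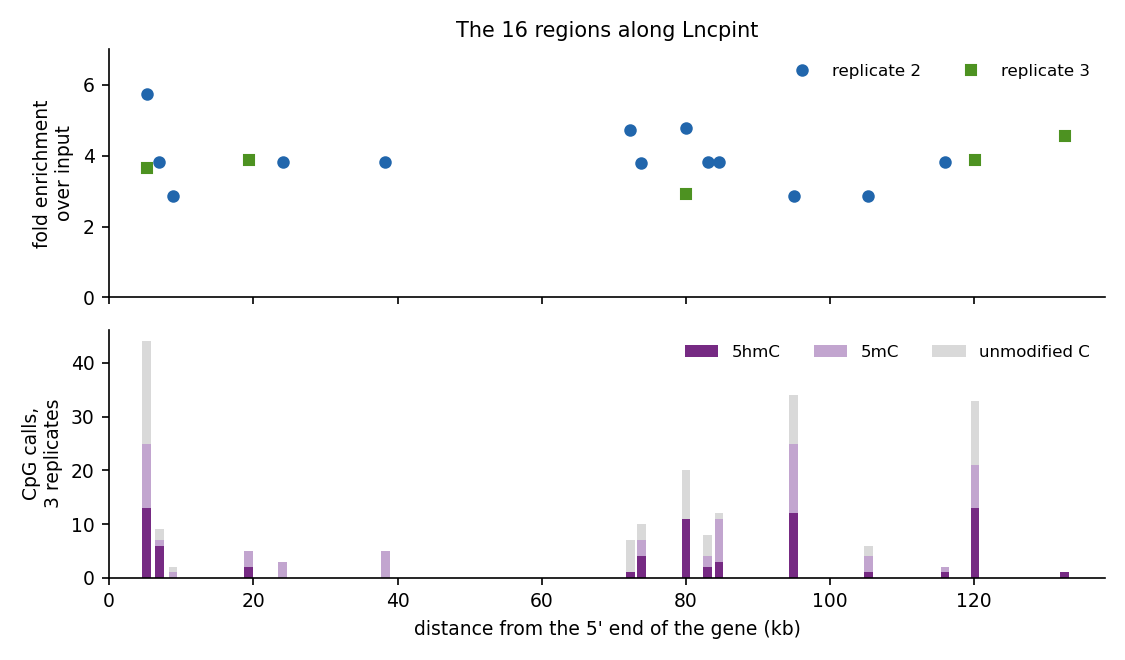
Fold enrichment over input (upper panel, replicates 2 and 3; replicate 1 had no peak) and CpG calls of the 3 replicates by state (lower panel) for the 16 Lncpint regions, against distance in kb from the 5′ end of the gene. Folds lie between 2.86 and 5.74, and 4 of the regions hold at least 20 calls.

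Next came 4833407H14Rik and Gm34276 with 8 regions each, then 2610035D17Rik, Gm40438 and Gm64463 with 7 each. In 4833407H14Rik, 5 of the 8 regions also lie in Mirt1 on the opposite strand. Among the 6 genes with the most regions, 4833407H14Rik was the most dense per length, at 23.5 per 100 kb, and Gm40438 the least, at 3.26 per 100 kb. Pooled over their regions, 5hmC was 39.05% of 105 calls in 4833407H14Rik, 31.1% of 132 in Gm34276, 27.1% of 177 in 2610035D17Rik and 33.02% of 106 in Gm64463. These pooled shares hide a wide spread, since in replicates 1 to 3 5hmC was 38.5%, 16.4% and 64% in Gm64463 and 28.1%, 18.6% and 42.1% in Gm34276. 2610035D17Rik held 54.2% 5mC, Gm40438 held 54.5% of only 44 calls, and Gm64463 held 48.1% unmodified C. The value of Gm64463 rested on replicate 2, since unmodified C was 38.5%, 69.1% and 12% of its calls in replicates 1 to 3. None of the 6 genes had a peak in replicate 1.

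Neat1 held 3 regions in 22397 bp. The one with repeated peaks (chr19:5894271-5895550) had folds of 5.74 and 4.84 in replicates 2 and 3, and its 129 calls were split almost evenly between 42 5hmC, 42 5mC and 45 unmodified. In replicates 1 to 3, 11 of 23, 12 of 40 and 19 of 66 calls were 5hmC, lower in the replicates with a peak than in replicate 1. A region near the 3′ end (chr19:5879979-5880805) had a fold of 3.79 in replicate 2 alone and was mostly 5mC (20 of 36 calls). Other regions with repeated peaks were in 4930459C07Rik, where 34 of 65 calls were 5hmC, and Gm31615, where 35 of 58 were 5mC.

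Among listed lncRNAs known in the brain, 4 of 16 genes held a region, against the background of 3.6% for lncRNA genes of all lengths. These were Lncpint, Neat1, Pvt1 and Sox2ot, with 22 regions between them, 16 of them in Lncpint, and the listed genes were long (median 53066 bp). Malat1, Miat, Rmst and Snhg11 were among the 12 without one. This list and those below were drawn up with earlier results of these data known. Their shares can therefore show no enrichment over the background. In Sox2ot, which overlaps the Sox2 locus, the region in replicate 2 (fold 4.77) had 1 5hmC among 4 calls. Pvt1, the neighbour of Myc, had 2 regions with 4 calls each.

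Of 8 listed imprinted lncRNAs, which were also long (median 44599 bp), H19 and Meg3 each held 1 region (25% of the genes, against 3.6%). The H19 region (chr7:142130231-142130930) contains Mir675 and had a fold of 3.53 in replicate 2 alone. Of its calls, 8 of 12 were 5hmC in replicate 2 but 1 of 16 in replicate 3, where 10 were 5mC. The Meg3 region (chr12:109510563-109510864, fold 3.87 in replicate 3) had no CpG calls. No lncRNA-only region was found in Airn, Kcnq1ot1, Mirg, Peg13, Rian or Snhg14. Merged regions centred inside a protein-coding gene or within 1 kb of a protein-coding start were left out by the rule. A listed gene without a lncRNA-only region may therefore still hold peaks, here and in the other lists.

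Of 16 microRNA host genes, Mir124-2hg, Mir181a-1hg, Mir9-3hg and Mir99ahg held 6 regions, 2 of them with a peak in 2 replicates. These 25% of the genes compare with the background of 3.6%, and the listed genes were longer than lncRNA genes in general (median 17669 against 5771 bp). The Mir9-3hg region (chr7:79164024-79165162, 48 CpG) was hydroxymethylated in 11 of 21 calls in replicate 2 and in 1 of 21 in replicate 3. In replicate 1 it was 1 of 9, with the other 8 as 5mC, so that replicate 2 stood apart. Of 19 small nucleolar RNA hosts only Snhg15 held a region, near a lncRNA start, with 3 5hmC among 5 calls. Of 320 annotated genes whose symbol ends in os, as or ot, with or without a number, 12 held 17 regions (3.75% of the genes, near the background), none with a peak in 2 replicates. Most such symbols mark opposite strand or antisense genes, but the rule also took Gas5, and a symbol with more than 1 gene identifier counted more than once. The 320 genes were longer than lncRNA genes in general (median 10378 against 5771 bp). Parts of a gene inside a protein-coding gene or within 1 kb of its start could hold no region, which left 27 of 54.4 kb in Ino80dos. Among those with a region, Pax6os1, named for the gene of the granule cell factor Pax6, had 2 regions. The one 4186 bp from the Pax6 start had 2 of 15 calls as 5hmC, and the one 53102 bp away had 10 of 25. Zmiz1os1 had 3 regions, the longest of which held 11 5hmC, 20 5mC and 13 unmodified calls.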

How the data were processed

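Regions, lists and named genes were chosen with earlier results of these data known. The authors base-called with Dorado, aligned to mm39 (GRCm39) with minimap2 and called MACS2 narrow peaks on each replicate alone against 1 input library. The deposited lists give a fold enrichment (a ratio), the −log10 of p and q, a display score and a summit. The authors counted base-calls at forward-strand CpG sites with modkit. These deposited counts, and percent values derived from them, have a median of 1 call per site, which limits the precision of single regions. The methods state that repeats were masked and blacklisted peaks removed, which was not checked. Reads per peak were not analysed here.

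Merged regions and 500 bp windows free of N were placed by their midpoint with GENCODE M39. Shares of classes are summed calls of 1 state over all calls at sites within a replicate's own peaks, unless stated otherwise. Shares of single regions and genes, and the quasi-binomial test, take all calls of the merged regions, also from replicates without a peak there. Replicates were compared by exact sign flips, and regions with at least 20 calls by a quasi-binomial test. Its 1 dispersion for all regions came from the spread between reactions, in regions with at least 5 calls in at least 2 replicates. Functions were tested on simulated data. Named are up to 10 regions of highest mean fold in at least 2 replicates, the 5 highest and 5 lowest in 5hmC, the 6 genes with most regions, the listed lncRNAs and regions called by the tests. Small RNA overlaps, tandem repeats and distance bins were chosen after values were seen. Alternatives covered replicates, transcripts, distances, peak thresholds, call minimums and deep regions. Computation used pysam 0.24.0, scipy 1.17.1, numpy 2.4.6, pandas 2.3.3 and matplotlib 3.10.9 under Python 3.11.15. The sequences and positions of 3 regions of high fold are not reported here.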

Additional observations from a re-analysis of the deposited data

Results flagged for a closer look

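Peaks on the sex chromosomes were not used above and were flagged as a signal outside the comparisons. Chromosome X carried 51 peaks summed over the replicates (3, 32 and 16), a share of 0.604%, 0.374% and 0.310% of each list. Chromosome Y carried 13 peaks (3, 6 and 4), or 0.604%, 0.0702% and 0.0774%, in libraries labelled female. Whether any lies in a lncRNA gene was not examined.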

How the results depend on the processing

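Of 72 comparisons with an alternative, 58 kept their direction and stayed within the spread between replicates (for recurrence, within its exact binomial interval, and for the number called, near it), 10 moved further and 4 reversed. Recurrence was −0.626 points and −1.62 points with a q-value of at most 0.01. 5hmC against protein-coding introns was −4.47 points as a median over regions, and −0.0175, −4.98 and −3.57 points in the 3 replicates at 2 kb from protein-coding starts. Keeping the deep regions moved 5hmC against protein-coding introns to −21.7 points, reversed 5hmC against regions outside genes to −7.14 points, and raised the lncRNA-only regions called for 5hmC from 1 to 10. In both shares, 1 region then gives most lncRNA-only calls, and the cause of the larger count was not tested. With a dispersion of 1 the count was 19, and with at least 40 calls per region it was 3. At sites with at least 5 calls, which lncRNA-only regions had in replicates 2 and 3 alone (45 and 27 calls), the difference from protein-coding introns reversed to 1.07 points. The excess near lncRNA starts was 17.8 points with GENCODE basic transcripts, 17.98 and 34.5 points for distances of 500 bp and 2 kb, and 6.63 points against windows with at least 10 CpG, chosen after seeing the data. The share of peaks against windows with at least 10 CpG was −5.95 points. The causes of these were not tested.

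Leaving out 1 replicate gave ranges of −8.34 to −7.14 points for the share of peaks, −0.343 to 0.258 points for recurrence, 0.0130 to 0.356 for fold, −4.36 to −1.59 points for 5hmC against protein-coding introns and 4.15 to 12.7 points against regions outside genes. The number called was 0 to 1 (0 without replicate 2, which holds the Zfp783 calls), CpG density −0.101 to 0.0456 per 100 bp, and the excess near starts 23.6 to 25.3 points. Recurrence and CpG density reversed without replicate 2. Without replicate 1, the difference in fold fell from 0.273 to 0.0130 and that in 5hmC from regions outside genes from 9.75 to 4.15 points. The rule gave 1205 regions with basic transcripts and 1203 at 2 kb from protein-coding starts. Classes of regions were subtracted within each replicate, so that the replicate was already a block. No paired analysis was possible between groups of samples because there is 1 group.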

Other observations

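lncRNA-only regions were unevenly spread over the chromosomes. Chromosomes 17 and 11 held 5.45 and 5.14 regions per Mb of lncRNA-only territory, and chromosomes 3 and 10 held 2.00 and 2.05 per Mb. Of the 1187 regions with a peak in 1 replicate, 504 (42.5%) had CpG calls in a replicate without a peak there. No CpG call was made at 71 of the 1233 regions with a CpG. lncRNA genes with a Rik symbol held a region in 7.21% of cases and those with a Gm number in 3.18%, and their median lengths were 13408 and 5186.5 bp. Genes with an Ensembl identifier alone were at 9.07% (median 28914 bp) and those with other symbols at 5.82% (11481 bp). These differences were not tested.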
